A study of Mus musculus with 2 samples.

Results

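The genes described here are 10 immune receptor and phosphatase genes of microglia, the resident macrophages of nervous tissue: the Fc receptor genes *Fcer1g*, *Fcgr1*, *Fcgr3* and *Fcgr2b*, the Siglec genes *Cd22*, *Cd33* and *Siglece*, the related inhibitory receptor gene *Sirpa*, and the phosphatase genes *Ptpn6* and *Ptprc*. They were chosen by name for their role, and all 10 were found among the 13549 genes of the count table. Both groups were sorted at postnatal day 5 from the retinas of mice that carried CD11c-Cre-gfp, a Cre recombinase with GFP under the promoter of the integrin gene of CD11c, and Rosa-TDTom, a red reporter that Cre switches on for good. Cd11c-active cells (GFP+TdTom+) had both colours, and Cd11c-lineage cells (GFP-TdTom+) had the red reporter without GFP. From a pool of 8 retinas (4 female and 4 male), 4041 Cd11c-active and 5441 Cd11c-lineage cells were sorted, and each group gave 1 library. The differences below therefore have no replicate check, and a CD11c promoter marks the cells that used it rather than a cell type.

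Fc receptors bind the constant part of antibodies. Activating Fc receptors signal through ITAMs, paired tyrosines that recruit the kinase SYK once they are phosphorylated, and many of them borrow the ITAM of the FCER1G adaptor. Inhibitory receptors carry ITIMs, single tyrosines that recruit phosphatases such as SHP-1, the product of *Ptpn6*, and so restrain the same pathway. Siglecs do this on binding sialic acid at cell surfaces, and SIRPA on binding CD47, which marks a cell as not to be eaten. In microglia these receptors help to set the threshold for engulfment.

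Patterns like an ITAM or ITIM were found in some of the members, which had been grouped by role and family and not by these motifs. The patterns are shown as the coding sequence of the mouse transcripts (GENCODE M21), 5′ to 3′, with the tyrosine codons in capitals and codons numbered from the start codon. A script searched the coding sequence after the last membrane-spanning segment for a tyrosine codon with an isoleucine, leucine, valine or serine codon 2 codons before it and an isoleucine, leucine or valine codon 3 codons after it (ITIM-like). The ITAM-like search asked for 2 tyrosine codons, each with a leucine or isoleucine codon 3 codons after it, with 6 to 12 codons between the 2 units. *Fcer1g* held the ITAM-like match among the 8 receptors, *Fcgr2b* and *Siglece* held 1 ITIM-like match each, *Sirpa* 3 and *Cd22* 4.
Fcer1g, codons from 65: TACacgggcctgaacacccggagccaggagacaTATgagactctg
Fcgr2b, codons from 317: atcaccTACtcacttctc
Siglece, codons from 430: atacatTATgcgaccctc
Sirpa, codons from 434: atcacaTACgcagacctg
Sirpa, codons from 475: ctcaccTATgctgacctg
Sirpa, codons from 499: tcagagTATgctagtgtc
Cd22, codons from 781: gttagtTATgccatcttg
Cd22, codons from 815: gtcactTACtcggtgata
Cd22, codons from 841: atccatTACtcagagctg
Cd22, codons from 861: gtagacTATgtgaccctc
*Fcgr1*, *Fcgr3* and *Cd33* held neither pattern, and no match says only that these letters are not in the stretch searched. The 84 and 26 codons after the membrane segment of *Fcgr1* and *Fcgr3* belong to receptors that signal through the FCER1G adaptor. Mouse *Cd33* has 61 codons there, and unlike the human gene its product is described as lacking the classical ITIM. It is kept here with the inhibitory group by family.

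The libraries held 12943998 (Cd11c-active) and 13402625 (Cd11c-lineage) reads, so all 10 genes were far above the limit that a count of 0 allows (3 reads, or 0.243 and 0.214 CPM). CPM gives the reads of a gene relative to the TMM-scaled library size, and a log2 ratio is always Cd11c-active over Cd11c-lineage. The labelled cell type was checked against 14 microglial genes, all of which had reads, with summed levels of 34107 and 30312 CPM. The 8 endothelial genes summed to 646 and 73.7 CPM, and 5 of them had 0 reads in Cd11c-lineage. The 5 border macrophage genes measured of 8 summed to 21.2 and 131 CPM, and 4 of them (*Lyve1*, *Cd163*, *Ms4a7* and *F13a1*) had 0 reads in Cd11c-active. The 10 retinal neuron genes measured of 12 summed to 112 and 235 CPM, with *Pdc* and *Neurod1* at 0 in Cd11c-active. This list was split, with 6 genes at least 2-fold lower in Cd11c-active and 2 at least 2-fold higher. The higher ones were *Elavl3*, with 96 against 26 reads, and *Rbpms*, with 325 against 126. Counts of 0 were also common outside these lists. Of the 13037 genes with 20 or more reads over both libraries, 1393 had none in Cd11c-active and 1388 none in Cd11c-lineage. In sorted bulk cells, fewer cells of a type and less RNA per cell cannot be told apart.

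The 3 activating Fc receptor genes all had log2 ratios above 0 and the 5 inhibitory receptor and Siglec genes all had ratios below 0, while the phosphatases had 1 on each side. None of the 10 reached a 2-fold difference: 0 were at least 2-fold higher in Cd11c-active, against 23.3% of the 13037 genes that had 20 or more reads in the pair of libraries, and 0 were at least 2-fold lower, against 21.6%. For the 4619 genes with at least 1000 reads, a minimum that 8 of the 10 members passed, the shares were 5.43% higher and 4.14% lower. Of all 13037 genes, 6549 had a ratio above 0 and 6488 below, with a median of 0.01, so scaling put the centre of all genes near 0. Under TMM the members' ratios ran from -0.69 for *Cd33* to 0.68 for *Fcer1g*. At 1.5-fold, a fold chosen after the values were seen, 1 member was past it upward, *Fcer1g*, as were 30.6% of the 13037 genes and 14.6% of the 4619. Downward it was again 1 member, *Cd33*, as were 29.5% and 14.5% of these genes. These counts depended on the processing: when libraries were scaled to their totals or to a list of microglial genes 0 members were past 1.5-fold upward and 3 downward (*Cd33*, *Ptprc* and *Cd22*), and after correction for length and GC 0 were upward and 1 downward (*Siglece*).

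**Figure D1:**
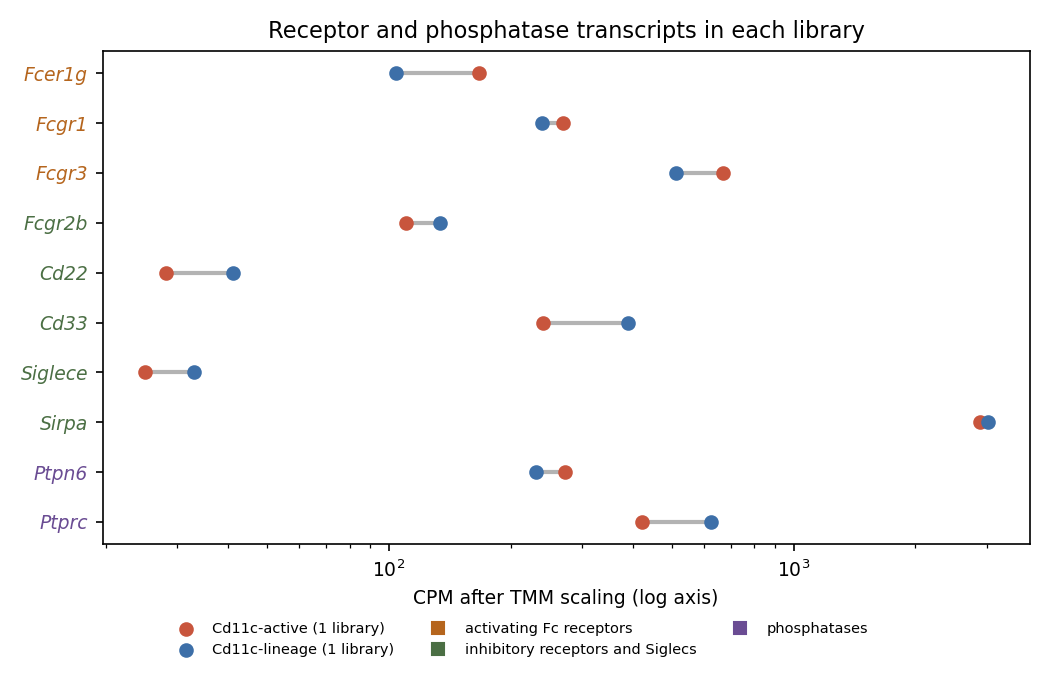
Level of each gene in the Cd11c-active (red) and Cd11c-lineage (blue) library in CPM on a log axis, 1 library each, with gene names coloured by role. The red point lies to the right of the blue one for Fcer1g, Fcgr1, Fcgr3 and Ptpn6 and to the left for the other 6 genes, and the distances are short beside the range from 24.9 CPM (Siglece) to 3015 CPM (Sirpa).

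Because there are no replicates, each ratio is set beside the 500 genes nearest to it in abundance, whose middle 95% shows how far ordinary genes of that level scattered between these libraries. The interval from counting alone is also given, and it covers counting error only, since several reads can come from 1 molecule. All 10 members lay inside the middle 95% of their neighbours. *Cd33* and *Ptprc* were nearest to its lower edge, with 3.0% and 3.6% of neighbours below them, and *Fcer1g* was nearest to its upper edge, above 92.0% of neighbours.

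**Figure D2:**
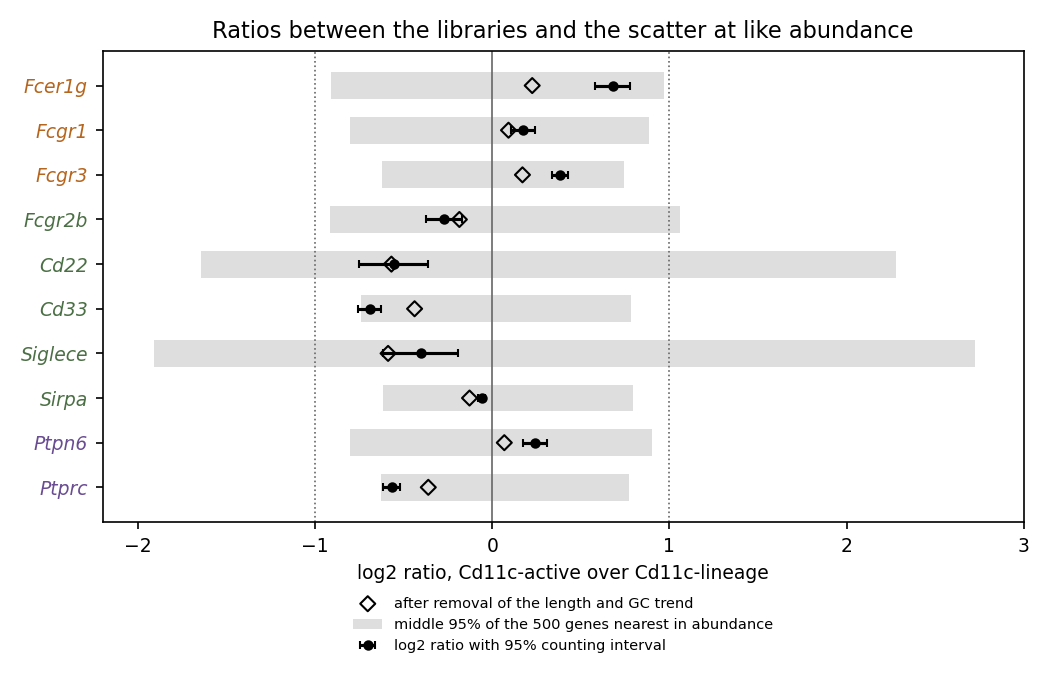
Log2 ratio of each gene (filled points) with its 95% counting interval, over grey bars for the middle 95% of the 500 genes nearest in abundance; open diamonds give the ratio corrected for the trend with length and GC, and dotted lines mark 2-fold. Every filled point lies within its grey bar, Cd33 (-0.69) and Ptprc (-0.57) close to the lower end, and the diamond of Fcer1g (0.23) is much nearer 0 than its point (0.68).

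Among the activating members, *Fcer1g* (ENSMUSG00000058715), the signalling adaptor of activating Fc receptors, was counted at 2064 reads in Cd11c-active against 1467 in Cd11c-lineage. That is 167 and 104 CPM, a log2 ratio of 0.68 (95% counting interval 0.58 to 0.78), inside its neighbours' range of -0.91 to 0.97. It was the highest ratio of the 10. *Fcer1g* also has the shortest transcript of the 10, at 674 bases, and once a trend of the ratio with length and GC, fitted over well-measured genes, had been removed its ratio was 0.23. The value for *Fcer1g* thus moved most of all members with that correction.

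*Fcgr3* (ENSMUSG00000059498), the low-affinity activating IgG receptor of mouse macrophages, had 8260 and 7209 reads, or 669 and 513 CPM. Its log2 ratio was 0.38 (0.34 to 0.43; neighbours -0.62 to 0.74), and 0.17 after the trend was removed. *Fcgr1* (ENSMUSG00000015947), the high-affinity IgG receptor, had 3328 and 3357 reads, or 270 and 239 CPM. Its ratio was 0.17 (0.10 to 0.24; neighbours -0.80 to 0.89). The size of the *Fcgr1* ratio depended on the scaling: it was 0.04 when libraries were scaled to their totals and 0.004 when they were scaled to the microglial genes. The 3 genes together had 13652 and 12033 reads, a log2 ratio of 0.37 (0.33 to 0.40), which was 0.35 without *Fcgr3* and 0.16 after the trend was removed.

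Among the inhibitory members, *Fcgr2b* (ENSMUSG00000026656), the inhibitory IgG receptor, was counted at 1365 reads in Cd11c-active against 1879 in Cd11c-lineage. That is 111 and 134 CPM, a log2 ratio of -0.27 (-0.38 to -0.17; neighbours -0.91 to 1.06). *Fcgr2b* and *Fcgr3* share transcript sequence: 12.8% of the 50-base stretches of the whole *Fcgr3* transcript also occur in transcripts of *Fcgr2b*. Of the stretches of the *Fcgr2b* transcript, 7.44% occur in transcripts of other genes, and 4.96% in those of *Fcgr3*. Some reads of *Fcgr2b* and *Fcgr3* may therefore have been lost or shared in the authors' counting. The other 8 members shared at most 0.611% with any other genes.

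*Cd33* (ENSMUSG00000004609), a Siglec of myeloid cells, had 2976 reads in Cd11c-active against 5470 in Cd11c-lineage, or 241 and 389 CPM. Its log2 ratio of -0.69 (-0.76 to -0.63; neighbours -0.74 to 0.78) was the lowest of the 10 under TMM. After the trend was removed it was -0.44, no longer the lowest, as *Siglece* was then -0.59 and *Cd22* -0.57, and the 2 principal transcripts annotated for *Cd33*, of 5728 and 1791 bases, make that correction uncertain for this gene. *Siglece* (ENSMUSG00000030474), a mouse Siglec that binds sialic acid on neighbouring cells, had 308 and 464 reads, or 24.9 and 33.0 CPM, and a ratio of -0.40 (-0.62 to -0.19). *Cd22* (ENSMUSG00000030577), best known as the Siglec of B cells and also found in microglia, had 347 and 580 reads, or 28.1 and 41.3 CPM, and a ratio of -0.55 (-0.75 to -0.36). Genes of that low abundance scattered widely between the libraries, with neighbours from -1.91 to 2.73 for *Siglece* and from -1.64 to 2.28 for *Cd22*. Both ratios stood well inside those ranges.

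*Sirpa* (ENSMUSG00000037902), the receptor for CD47, had by far the most reads of the 10, at 35700 and 42357, or 2891 and 3015 CPM. Its log2 ratio was -0.06 (-0.08 to -0.04; neighbours -0.62 to 0.79). Under TMM this was the ratio closest to 0, whereas *Fcgr1* and *Ptpn6* were closer with library totals, with the microglial genes and after the trend was removed. *Sirpa* made up 65.7% (exact Clopper-Pearson 95% interval 65.3 to 66.1) of the 54348 reads of the 8 receptors in Cd11c-active and 67.5% (67.1 to 67.8) of the 62783 in Cd11c-lineage. It therefore set the summed ratio of the 5 inhibitory members, which was -0.13 (-0.15 to -0.11) with *Sirpa* and -0.56 (-0.61 to -0.51) without it. Of the 4996 and 8393 reads left without *Sirpa*, *Cd33* had 2976 and 5470. Photoreceptors and other neurons also express *Sirpa*, and the part of the neuronal transcripts listed above in its value was not tested.

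Of the phosphatases, *Ptpn6* (ENSMUSG00000004266), which encodes the SHP-1 that ITIMs recruit, had 3366 and 3241 reads, or 273 and 231 CPM. Its log2 ratio was 0.24 (0.17 to 0.31; neighbours -0.80 to 0.90), and 0.07 after the trend was removed. *Ptprc* (ENSMUSG00000026395), which encodes CD45, the abundant surface phosphatase of leukocytes that acts on Src family kinases, had 5207 and 8789 reads, or 422 and 626 CPM. Its ratio was -0.57 (-0.62 to -0.52; neighbours -0.63 to 0.77), and -0.36 after the trend was removed. An annotated gene, *A130071D04Rik*, overlaps *Ptprc* on the same strand and had 131 and 151 reads of its own. The summed ratio of both phosphatases, -0.30 (-0.34 to -0.26), therefore joins members on opposite sides of 0. CD45 is carried by all leukocytes, and the part of the border macrophage transcripts in the values of *Ptprc* and *Cd33* was not tested.

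Ratios between members within 1 library do not depend on how the libraries were scaled. For each read of *Fcgr2b*, Cd11c-active had 6.05 reads of *Fcgr3* (5.71 to 6.41) and Cd11c-lineage 3.84 (3.65 to 4.04). For *Fcer1g* the same numbers were 1.51 (1.41 to 1.62) and 0.781 (0.729 to 0.836), and for *Fcgr1* they were 2.44 (2.29 to 2.60) and 1.79 (1.69 to 1.89). Each of these 3 activating genes thus had more reads per read of *Fcgr2b* in the Cd11c-active library, by 1.36-fold to 1.94-fold. All 3 share the reads of *Fcgr2b* and follow from the log2 ratios above, so they are not 3 further observations. The intervals cover counting error only, and the scatter of other pairs of genes was not computed. A further activating IgG receptor gene that is not among the 10, *Fcgr4*, ran the other way, with 0.169 reads per read of *Fcgr2b* in Cd11c-active (0.147 to 0.195) and 0.252 in Cd11c-lineage (0.227 to 0.279). On the log2 scale these differences were 0.66 for *Fcgr3*, 0.95 for *Fcer1g*, 0.45 for *Fcgr1* and -0.57 for *Fcgr4*, and 0.36, 0.41, 0.28 and -0.89 after the trend was removed. Over the 3 activating members together against all 5 inhibitory members, the ratio of reads was 0.335 (0.329 to 0.342) in Cd11c-active and 0.237 (0.232 to 0.242) in Cd11c-lineage, a log2 difference of 0.50, or 0.32 after the trend was removed. Without *Sirpa*, left out after its share of the reads was seen, it was 2.73 (2.65 to 2.82) and 1.43 (1.39 to 1.47), a log2 difference of 0.93, or 0.55 after the trend was removed. Most of the inhibitory reads then left were those of *Cd33*, with 2976 of 4996 in Cd11c-active and 5470 of 8393 in Cd11c-lineage. *Cd33* held no ITIM-like match and is in the group by family.

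The members at the ends of the range, *Fcer1g* and *Cd33*, gave 0.694 reads of *Fcer1g* for each of *Cd33* in Cd11c-active (0.655 to 0.734) and 0.268 in Cd11c-lineage (0.253 to 0.284), a 2.59-fold difference for a pair picked from the extremes. Within the activating group, *Fcer1g* to *Fcgr3* stood at 0.250 (0.238 to 0.262) and 0.203 (0.192 to 0.215). For the phosphatases, *Ptpn6* to *Ptprc* stood at 0.646 (0.619 to 0.675) and 0.369 (0.354 to 0.384). After the trend was removed the log2 differences of these 3 pairs went from 1.37 to 0.66, from 0.30 to 0.06 and from 0.81 to 0.43.

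**Figure D3:**
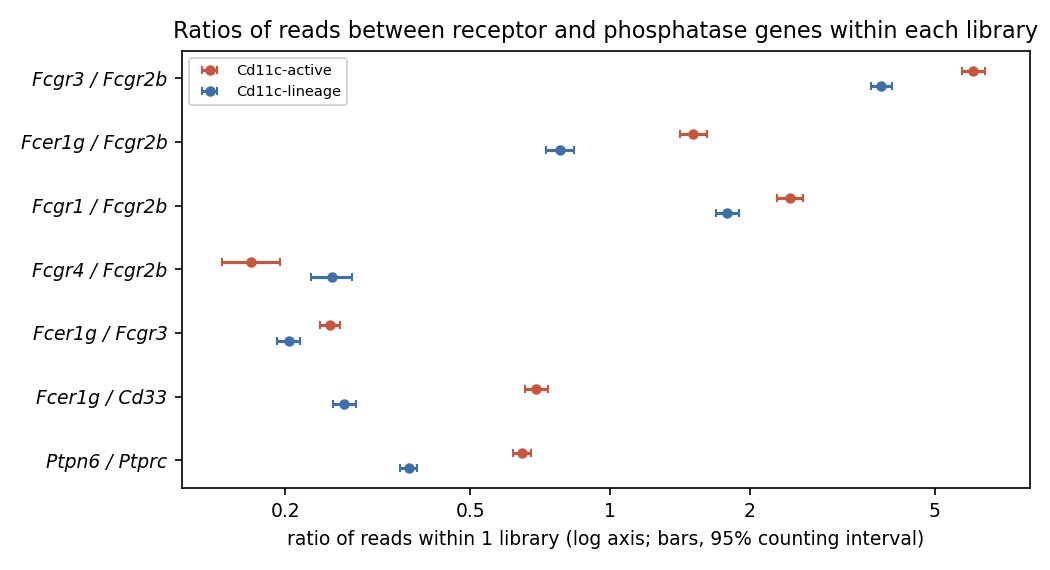
Reads of the first gene per read of the second within each library on a log axis, Cd11c-active in red and Cd11c-lineage in blue, with 95% counting intervals. The red point lies to the right of the blue one in 6 of the 7 pairs, with the widest gap for Fcer1g to Cd33 (0.694 against 0.268), and to the left for Fcgr4 to Fcgr2b (0.169 against 0.252).

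Levels can be set between genes only per length, here CPM per kilobase of the annotated principal transcript. On that scale *Sirpa* was the highest in both libraries, at 726 in Cd11c-active and 757 in Cd11c-lineage, followed by *Fcgr3* (497 and 381) and *Fcer1g* (248 and 155). *Ptpn6* (123 and 104), *Fcgr1* (104 and 92.3) and *Ptprc* (89.7 and 133) came next, with *Ptprc* the lowest of these 3 in Cd11c-active and the highest in Cd11c-lineage. *Cd33* (42.1 and 68.0) and *Fcgr2b* (31.2 and 37.7) were lower still, but with their shorter principal transcripts *Cd33* had 135 and 217 and *Fcgr2b* 70.1 and 84.7, so their place in the order depends on the transcript used. *Siglece* (13.5 and 17.9) and *Cd22* (7.07 and 10.4) were the lowest in both. The order has no replicate spread to judge neighbours by.

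All 10 members kept the sign of their ratio under the 6 alternatives run for each, which were 4 other scalings, a prior count of 5 and removal of the length and GC trend. Each alternative changed 1 setting, and combinations were not tested. Scaling to library totals lowered every log2 ratio by 0.14 and scaling to the microglial genes by 0.17, relative to the centre of all genes under TMM. DESeq2 size factors and TMM without ribosomal and mitochondrial RNA shifted that centre by only -0.006 and -0.0001. The trend was removed under TMM only, where *Fcgr1* was then 0.09 and *Ptpn6* 0.07, both smaller than the 0.14 of library totals. The authors' deposited table, scaled to library totals, gives log2 fold changes from -0.83 for *Cd33* to 0.54 for *Fcer1g*.

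**Figure D4:**
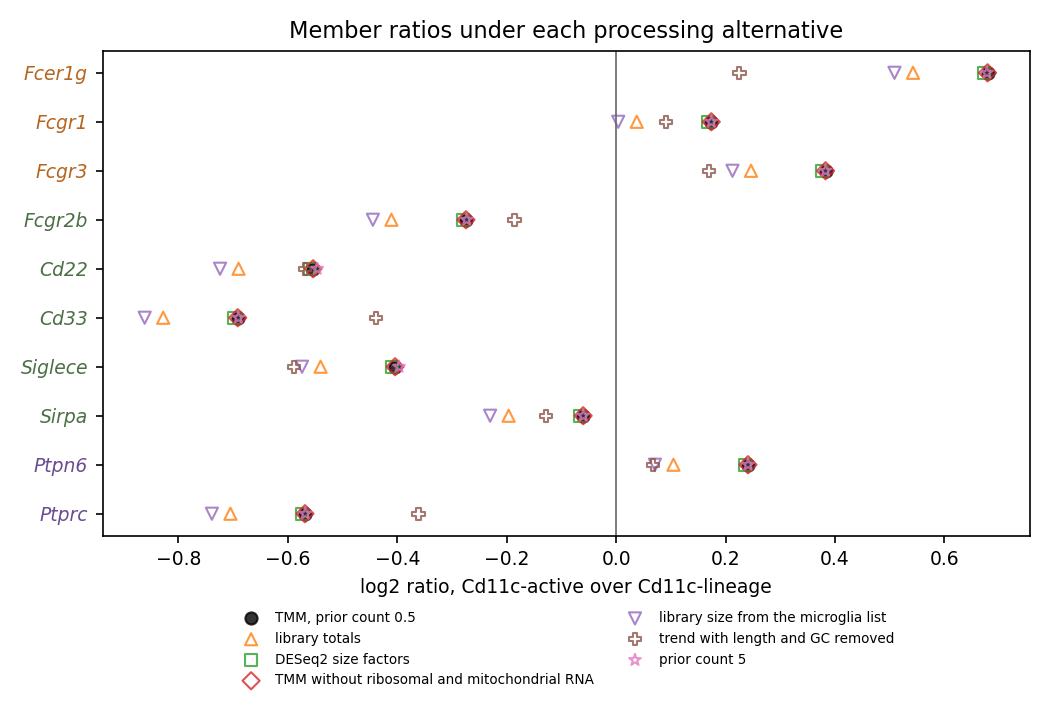
Log2 ratio of each gene under TMM scaling (filled) and under the 6 alternatives (open symbols, named in the legend). The symbols of each gene stay on 1 side of 0, Fcgr1 comes as close as 0.004, and the spread is widest for Fcer1g, from 0.23 to 0.68.

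The remaining receptors of these families were read from lists chosen for their roles. Of 4 other measured Fc receptor and ITAM adaptor genes 0 were 2-fold different in either direction (median log2 ratio -0.16), beside 23.3% of all genes higher and 21.6% lower. For genes with at least 1000 reads, which 3 of the 4 had, the shares were 5.43% and 4.14%. *Fcgr4*, named after its value was seen, was the closest to 2-fold, with 231 and 473 reads and a log2 ratio of -0.85 (-1.08 to -0.62), opposite in sign to the 3 activating members. It was past 2-fold lower when scaled to the microglial genes (-1.02) and after the trend was removed (-1.07). *Tyrobp*, which encodes DAP12, the ITAM adaptor that partners many Siglecs and TREM2, had 7079 and 6055 reads and a ratio of 0.41, which reversed to -0.11 after the trend was removed. *Fcrls*, an Fc receptor-like gene typical of microglia, had 35207 and 38773 reads and a ratio of 0.05, which reversed to -0.09 with library totals, -0.12 with the microglial genes and -0.01 after the trend was removed. Of 4 other measured Siglecs 0 were 2-fold higher and 1, *Mag* (138 and 334 reads), was lower (median -0.49), beside the same shares of all genes. *Siglech*, the DAP12-coupled Siglec of microglia, had 2139 and 3539 reads and a ratio of -0.54, and *Siglecf* had 540 and 446 reads and 0.46.

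Of 17 other measured inhibitory receptors 3 were at least 2-fold higher and 5 at least 2-fold lower (median 0.03), against 23.3% and 21.6% of all genes. *Vsir* (12536 and 13934 reads, ratio 0.03) and *Lair1* (4462 and 5430, -0.10), a collagen receptor with ITIMs, had the most reads. The ratio of *Vsir* was -0.10 with library totals, -0.14 with the microglial genes and -0.004 after the trend was removed, and that of *Lair1* was 0.16 after it. Past 2-fold with at least 1000 reads was *Pecam1* (1725 and 523 reads, 1.91), an ITIM receptor that is also an endothelial marker. The others past 2-fold had fewer reads and were named after their values were seen: *Pdcd1* and *Milr1* higher (*Milr1* at 1.003, and under 2-fold with library totals, the microglial genes, DESeq2 size factors and trend removal), and *Lilrb4a*, *Ceacam1*, *Cd72*, *Clec4a1* and *Clec4a2* lower, the last 2 with 0 reads in Cd11c-active. Of 9 activating relatives of these receptors 2 were 2-fold higher (*Cd300ld* and *Cd300lb*, the latter at 1.09, and at 0.96 with library totals and 0.92 with the microglial genes) and 3 lower (*Clec4n*, and *Sirpb1b* and *Trem1* with 0 reads in Cd11c-active), with a median of 0.73. The 4 of them with at least 1000 reads lay between 0.58 and 0.98, *Trem2*, the receptor for lipids and apoptotic cells (7327 and 5584 reads), at 0.58 and *Cd300c2* (1603 and 924) at 0.98. After the trend was removed *Trem2* was 0.19 and *Cd300c2* 0.72.

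Downstream of the receptors, 24 kinases and adaptors of ITAM signalling had a median of -0.02, with 2 at least 2-fold higher and 1 lower (all genes 23.3% and 21.6%), and 1 in each direction with library totals, with the microglial genes and after the trend was removed. Among the 22 of them with at least 1000 reads, 2 were higher and 1 lower under TMM, beside 5.43% and 4.14% of all genes with that many reads. *Lyn*, the Src family kinase that phosphorylates both ITAMs and ITIMs, had 8984 and 10910 reads and a ratio of -0.09, and the adaptor gene *Fyb* had 4973 and 5575 reads and 0.02, which was -0.11 with library totals and -0.15 with the microglial genes. The adaptor gene *Blnk* had 1143 and 490 reads (1.41) and *Card9* 460 and 1147 (-1.13). Among 18 other phosphatase and docking protein genes 2 were 2-fold higher (*Ptpn18*, and *Dok2* with 0 reads in Cd11c-lineage) and 1 lower (median 0.07), beside 23.3% and 21.6% of all genes. Among the 13 of them with at least 1000 reads, 0 were higher and 1 lower, beside 5.43% and 4.14% of genes with that many reads. After the trend was removed 1 of the 18 was higher and 2 were lower, as *Ptpn18* went from 1.22 to 0.89 and *Dok3* from -0.64 to -1.05. *Inpp5d*, which encodes the lipid phosphatase SHIP1 that FCGR2B recruits, had 11069 and 12102 reads and a ratio of 0.06, reversed to -0.08 with library totals and -0.11 with the microglial genes. *Ptprj* had 7574 and 8735 reads and -0.02, reversed to 0.13 after the trend was removed. *Dok1*, a docking protein gene of inhibitory signalling, had 412 and 1072 reads and -1.19.

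Of 20 genes for ligands and sialic acid metabolism, 6 were 2-fold higher and 4 lower (median -0.02), beside 23.3% and 21.6% of all genes, and 5 were lower with the microglial genes (*Cd24a* at -1.004) and after the trend was removed (*St3gal3* at -1.001). The medians of the 7 pathway lists were the same to 2 decimals with genes at 0 reads set to 3 reads. *Cd47*, the ligand of SIRPA, had 1222 and 1587 reads and a ratio of -0.19, reversed to 0.03 after the trend was removed. The sialyltransferase gene *St6gal1*, which makes a sialic acid linkage that CD22 binds, had 1718 and 1900 reads and 0.04, which was -0.09 with library totals and -0.13 with the microglial genes. Past 2-fold with at least 1000 reads were *Neu1*, a lysosomal sialidase (1050 and 381 reads, 1.65), *St6galnac4* (1849 and 743, 1.501) and *St3gal2* (575 and 1369, -1.06). The higher ones also included *St8sia4* (343 and 152 reads), and *Cd200*, *Neu3* and *St8sia1* with 145, 153 and 33 reads against 0 in the Cd11c-lineage library. The lower ones also included *Slc35a1*, *St6galnac6* and *St3gal4*, with 52, 77 and 0 reads in Cd11c-active. *Neu1*, *St6galnac4* and *St3gal2* kept their side of 2-fold under every scaling run and after the trend was removed.

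**Figure D5:**
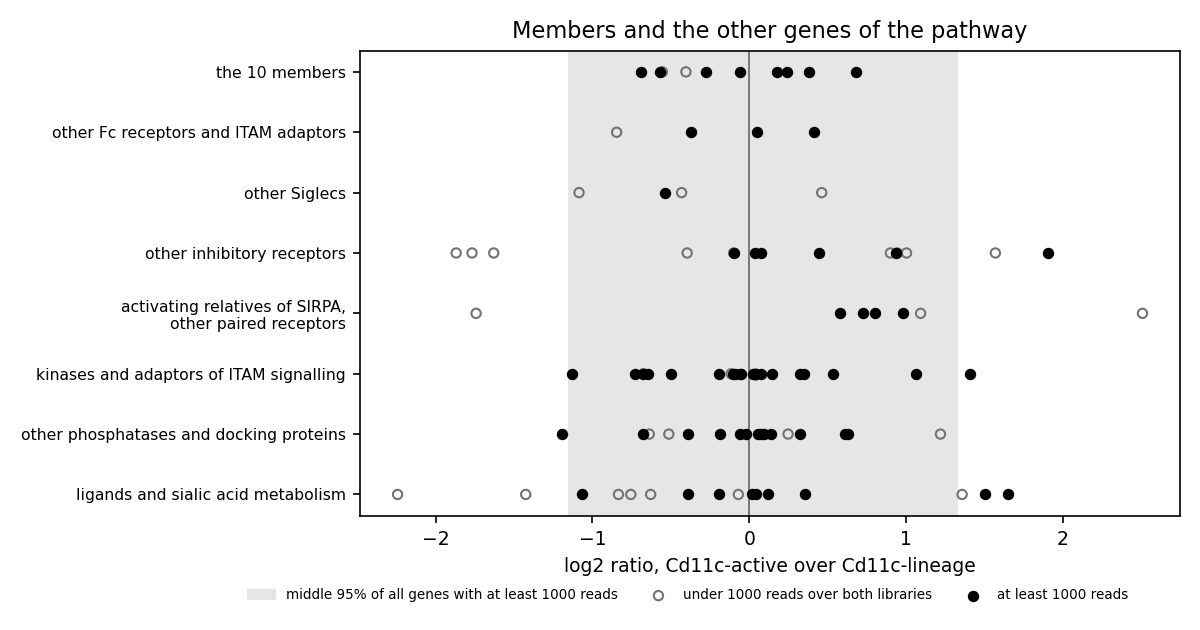
Log2 ratio of each gene with reads in both libraries in the members and in the 7 pathway lists, filled where it had at least 1000 reads over both libraries and open where it had fewer, over a grey band for the middle 95% (-1.15 to 1.32) of the 4619 genes with at least 1000 reads. The members lie between -0.69 and 0.68, inside the band, and most genes outside it are open points.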

How the data were processed

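Per the submitters' processing notes, cutadapt 3.5, STAR 2.7.9a, featureCounts 1.6.3, edgeR 4.0.16 and the build GRCm39 were used, with no role or order given. The strand setting of the counting, the annotation and the filters are not given in the sources used here. Per the labels' protocols, ribosomal RNA was depleted and libraries were stranded. Per the file headers, the authors deposited unnormalized read counts of each gene, their log2 fold change and the log2 mean CPM. No gene summed to fewer than 6 reads. No column of unmapped samples was present (0).

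Library sizes were scaled with TMM (edgeR 4.0.16, R 4.3.3; factors 0.954 and 1.05). Ratios were formed on the log2 scale from (reads + 0.5) over the scaled library size, with exact Clopper-Pearson 95% intervals. With 1 library per group no test of conditions could be fitted, so a gene was counted past a fold of 2 with at least 20 reads over both libraries. Python 3.11.15, numpy 2.4.6, pandas 2.3.3, scipy 1.17.1, Biopython 1.88 and matplotlib 3.10.9 did the rest. On simulated data with 13039 genes, 100% of 200 genes changed 4-fold were past 2-fold, and 95.3% of the intervals held the true value. That holds for independent reads.

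Transcript length, GC content and coding sequence came from GENCODE M21, an annotation of another build (GRCm38), matched by gene identifier for 13499 genes (99.6%) and all 10 members, so no coordinates are given. The trend with length and GC content used the longest protein-coding transcript of each gene and was estimated from genes of 1000 reads or more. Membrane segments were taken as the last 19-residue window with a mean Kyte-Doolittle hydropathy of at least 1.6, and per-length levels used the principal transcript with the longest coding sequence.

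The members and lists were chosen with earlier results of these data known. Named besides the members are, of each pathway list, the genes of 1000 reads or more with a 2-fold difference and the 2 with the most reads. Some genes of these lists are not reported here.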

Additional observations from a re-analysis of the deposited data

How the results depend on the processing

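The counts of members at least 2-fold higher or lower stayed at 0 under the 4 other scalings, the trend removal, a prior count of 5, no minimum of reads and a minimum of 1000 reads, and were 1 and 1 at the added fold of 1.5 under TMM, TMM without ribosomal and mitochondrial RNA and DESeq2 size factors. At that fold they were 0 and 3 with library totals and with the microglial genes, and 0 and 1 after trend removal. With library totals the summed log2 ratios were 0.23 (activating), -0.27 (inhibitory) and -0.44 (phosphatases), with the microglial genes 0.20, -0.30 and -0.47, and after trend removal 0.16, -0.17 and -0.23. The inhibitory sum was -0.56 without *Sirpa*, an alternative added after seeing the data. Under DESeq2 size factors and TMM without ribosomal and mitochondrial RNA the sums moved by less than their counting intervals. No paired analysis was possible because each group had 1 library, and for the same reason no library could be left out. The models of edgeR and DESeq2 could not be fitted, since no residual degrees of freedom remain. Genes near the reads of *Siglece* and *Cd22* scattered over several-fold, which limits what their ratios show.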

Other observations

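Markers of other leukocytes that carry Fc receptors or Siglecs gave the following values. Of 8 B cell genes 5 were measured, with summed levels of 201 and 210 CPM in Cd11c-active and Cd11c-lineage. *Ighm*, the heavy chain of IgM, made up most of this sum, with 2027 and 2566 reads, while *Bank1* had 204 and 112, *Cd79b* 141 and 184, *Ebf1* 55 and 82, and *Cd79a* 55 and 1. *Ms4a1* and *Pax5* were not analysed here, nor were any of the 8 T and NK cell genes. The part of B cells in the values of *Cd22* and *Fcgr2b* was not tested.

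Of 6 mast cell and basophil genes *Gata2* was measured, with 44 and 0 reads, and of 6 dendritic cell genes *Zbtb46*, with 200 and 0. The 5 monocyte and neutrophil genes measured of 8 summed to 13.2 and 25.0 CPM, with *Plac8*, *S100a8* and *S100a9* at 0 reads in Cd11c-active and *Ccr2* at 0 in Cd11c-lineage. As given above, counts of 0 were also common among all measured genes. The coinhibitory receptor gene *Lag3*, which lies outside the naming rule and was picked after its value was seen, was counted at 6108 and 3630 reads, so that its log2 ratio was 0.94, and 0.61 without the length and GC trend.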
